A study of Homo sapiens with 8 samples.

Results

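BRWD1 and 7 related bromodomain genes (BRWD3, PHIP, BRD2, BRD3, BRD7, BRD8 and BRD9) were followed in an AGO2 RIP-chip experiment, 8 of the 22439 genes that the array's probes could be matched to by symbol. BRWD1 was chosen by its input values, since it had the largest fall in total RNA after miR-634 among 10956 measured genes, and the other 7 were taken for their kinship to it. Because that choice used the input arrays, every BRWD1 value that rests on them is given as a description with no test, and only the BRWD1 change in the RIP was tested. The 8 genes had 16 probes, of which 11 were well above the background of the array on all 8 arrays and were tested. These were 2 of 5 probes for BRWD1, 0 of 1 for BRWD3, 2 of 2 for PHIP, 1 of 1 for BRD2, 3 of 3 for BRD3, 1 of 1 for BRD7, 1 of 2 for BRD8 and 1 of 1 for BRD9.

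A431, a human epidermoid carcinoma line, was transfected with 10 nM of miR-634 or of the non-targeting control miR-NC and lysed after 24 h. From each kind of cell, total RNA (input) and RNA precipitated with an antibody to AGO2 (RIP) were hybridized on 2 arrays each, giving 4 groups. The labels list a normal rabbit IgG antibody for the input arrays, while the study's methods describe them as total RNA, and they are called input here. All 8 of the keratinocyte and epithelial genes checked for the line, KRT5, KRT6A, KRT14, KRT17, TP63, SFN, EGFR and CDH1, were detected well above background on each array. Of 5 genes of other cell types with a probe, none was so on all 8 arrays and CD3E, PECAM1 and MLANA were so on none, whereas PTPRC was on 5 and COL1A1 on 4 arrays. The study's methods state that experiments were done in duplicate, without saying whether the 2 arrays of a group came from separate transfections, so that the p-values measure the spread between these arrays, which may be technical.

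AGO2 is the core protein of the RNA-induced silencing complex, in which a microRNA pairs with target mRNAs mainly through its seed. A transcript bound by AGO2 with a microRNA can rise in the precipitate relative to the input while its total RNA falls or stays. Bromodomains are small protein modules that read acetylated lysines on histones. BRWD1, BRWD3 and PHIP join bromodomains to WD40 repeats and serve as substrate receptors of CUL4 ubiquitin ligases. BRD2 and BRD3 belong to the BET family of transcriptional coactivators. BRD7 is a subunit of the PBAF chromatin remodeler, BRD9 of the non-canonical BAF remodeler, and BRD8 of the NuA4/TIP60 acetyltransferase complex.

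The transfected microRNA is shown because all comparisons turn on it. The mature strand, from RefSeq (GRCh38.p14), lies at chr17:66787132-66787153 on the plus strand, and capitals mark its seed, bases 2 to 8.
hsa-miR-634: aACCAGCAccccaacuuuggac
The letters UGCUGGU in a transcript would pair with this seed. Transcript sequences were not used here, so the members were not searched for them.

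Levels are log2 intensities after the arrays were brought to a common 75th percentile, taken over the probes detected well above background throughout. Enrichment is the RIP level minus the input level, and the fold change of enrichment is the difference in enrichment between both kinds of cells (miR-634 minus miR-NC), on the log2 scale. A probe was called when its adjusted p was under 0.05 in limma over 16805 probes. Before the shift, the 75th percentile of log2 intensity was 11.38 to 11.53 on the input arrays, 9.39 to 9.48 on the miR-NC RIP arrays and 10.38 to 10.43 on the miR-634 RIP arrays, while the spike-in controls read 10.36 to 10.90 on all 8. Scaled on these spike-ins, the median RIP change of all probes went from -0.24 to 0.67, the median fold change of enrichment from -0.26 to 0.82, and the median enrichment from -0.06 to -2.53 in miR-NC cells and from -0.15 to -1.54 in miR-634 cells. RIP and enrichment values below are therefore relative to the other transcripts on the arrays.

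BRWD1 total RNA was low after miR-634, while its level in the AGO2 precipitate differed by 0.09 between the kinds of cells. The brighter probe, A_24_P861009, to NM_001007246, read 7.85 and 7.87 on the miR-NC input arrays and 6.01 and 6.16 on the miR-634 input arrays. On the RIP arrays it read 8.20 and 8.25 with miR-NC and 8.31 and 8.32 with miR-634. The miR-634 input arrays thus stood alone at the bottom, and the order of the groups ran from miR-634 input over miR-NC input and miR-NC RIP to miR-634 RIP, with the RIP groups, though not overlapping, only 0.09 apart. The input change of -1.78 corresponded to 3.42-fold less RNA, and in bulk RNA fewer cells with the transcript and less of it per cell cannot be told apart. Even before the shift between arrays the same probe gave intensities of 405 and 404 in miR-NC input and 115 on both miR-634 input arrays, with 126 and 123 in miR-NC RIP and 262 and 255 in miR-634 RIP. The RIP change of this probe was 0.09 (SE 0.06, 95% interval -0.06 to 0.23, adjusted p = 0.225), which did not pass the test. It passed with the authors' processed values at 0.26, with the percentile over all probes at 0.26, after centering on the median change at 0.32 and with spike-in scaling at 0.99.

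The fold change of enrichment of this BRWD1 probe was 1.86, or 3.64-fold. Its enrichment was 0.36 with miR-NC and 2.23 with miR-634, which became -2.11 and 0.84 with spike-in scaling. The fold change of enrichment itself was 1.13 with normexp and quantile normalization and 2.95 with spike-in scaling. Because the RIP level moved by 0.09 and the input level by -1.78, nearly all of the difference in enrichment lay in the input arrays with this scaling, whereas with spike-in scaling the changes were 0.99 and -1.95. As the rule took the gene with the largest input fall, the genes at the edge of the choice can be set beside it. RPIA, a pentose phosphate enzyme, followed at -1.77, EIF5A2 at -1.48 and ARPC5 at -1.37. With normexp background correction and quantile normalization the BRWD1 input change was -1.05.

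The second BRWD1 probe, A_24_P190541, to NM_018963, showed the same order of the input arrays with a smaller difference. It read 7.61 and 7.59 in miR-NC input, 6.77 and 6.71 in miR-634 input, 7.19 and 7.05 in miR-NC RIP, and 7.22 and 7.06 in miR-634 RIP. The RIP groups overlapped, and the miR-634 input arrays were again lowest. Its input change was -0.86, or 1.81-fold less. The RIP change was 0.02 (SE 0.08, 95% interval -0.16 to 0.20, adjusted p = 0.827), not called, against 0.25 after centering and 0.93 with spike-in scaling, where it was called. The fold change of enrichment was 0.88, from an enrichment of -0.48 in miR-NC cells and 0.40 after miR-634, the latter -0.99 with spike-in scaling. The input fall of this probe was thus the smaller one, and the files give no probe sequence by which to place them on the transcripts.

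The other 3 BRWD1 probes were too dim for the test. Probe A_33_P3395713, also to NM_018963, was well above background on all 4 input arrays, at 6.09 and 5.91 with miR-NC and 5.52 and 5.07 with miR-634. It was so on none of the miR-NC RIP arrays and 1 of the miR-634 RIP arrays, and its miR-NC input level was at least 1.44-fold higher than its miR-NC RIP level, where the lowest signal well above background stands in for the dim side. Probe A_23_P211136, to NM_018963, was well above background on both miR-NC input arrays, at 4.50 and 4.40, on 1 miR-634 input array, on no miR-NC RIP array and on 1 miR-634 RIP array. On these 2 probes the miR-634 input arrays again lay below the miR-NC input arrays, although for the latter 1 of them was not well above background. Probe A_24_P231025, to NM_033656, was well above background on a single array, miR-NC RIP replicate 1, with an intensity of 243 against 6.26 on the other array of that group, so that no level is given for that transcript.

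**Figure D1:**
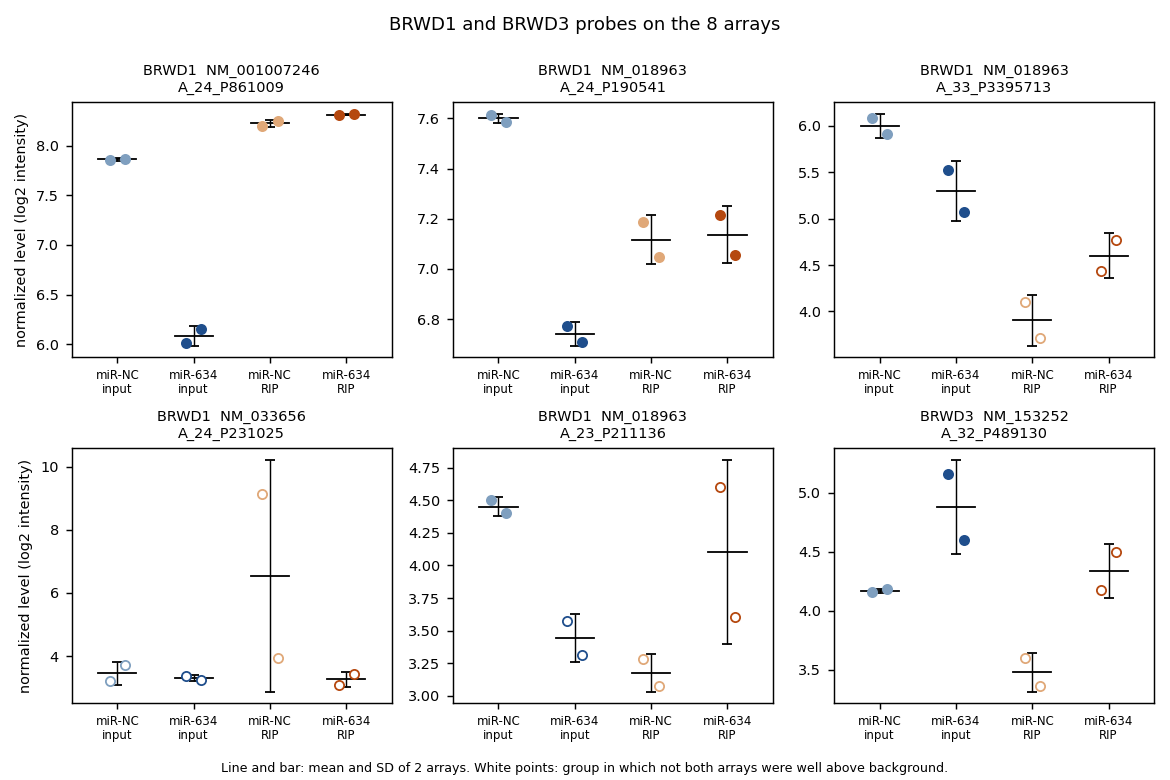
Normalized level (log2 intensity, vertical axis, each panel with its own range) of the 5 BRWD1 probes and the BRWD3 probe on the 2 arrays of each group, with the mean and SD. Filled points mark groups in which both arrays were well above background. In the first 2 panels the miR-634 input arrays lie below all others, while the RIP groups lie 0.09 and 0.02 apart.

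BRWD3, the close relative of BRWD1, had 1 probe (A_32_P489130, NM_153252), which was well above background on the 4 input arrays and on no RIP array. Its input levels were 4.16 and 4.18 with miR-NC and 5.16 and 4.60 with miR-634. Both miR-634 arrays were higher, but they lay further from each other than the miR-NC arrays did. When probes were kept by the input arrays alone (23567 probes), its input change was 0.71 (SE 0.21, adjusted p = 0.12), not called. In miR-634 cells the mean input level was 1.36-fold above the RIP mean, with a stand-in for the dim RIP side. For each RIP array this was the lowest signal well above background, or its own level if higher. The RIP arrays read 4.17 and 4.50, and the lower input array, at 4.60, stood close above the latter.

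PHIP, the third WD40 and bromodomain gene, was called higher in the precipitate after miR-634 by both probes and lower in the input by 1 of them. Probe A_23_P145437 (NM_017934) read 10.96 and 11.02 in miR-NC input, 10.58 and 10.62 in miR-634 input, 9.59 and 9.59 in miR-NC RIP, and 9.99 and 9.86 in miR-634 RIP. Neither the input groups nor the RIP groups overlapped, and both RIP groups were below both input groups. The input change was -0.39 (SE 0.06, adjusted p = 0.00856) and was lost on leaving out any 1 of the 4 input arrays (adjusted p 0.0503 to 0.0636). The RIP change was 0.34 (SE 0.06, adjusted p = 0.00209), a rise of 1.26-fold, and the fold change of enrichment was 0.73 (SE 0.08, adjusted p = 0.000389), or 1.66-fold.

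The other PHIP probe, A_33_P3312246, read 8.94 and 8.95 in miR-NC input, 8.62 and 8.41 in miR-634 input, 7.43 and 6.71 in miR-NC RIP, and 7.65 and 7.76 in miR-634 RIP. Its groups did not overlap either, but the miR-NC RIP arrays had an SD of 0.51, the widest spread within a group among the tested member probes. The input change of -0.43 (SE 0.22, adjusted p = 0.225) was not called. The RIP change was 0.64 (SE 0.22, adjusted p = 0.0329) and the fold change of enrichment 1.07 (SE 0.31, adjusted p = 0.0199). The RIP call was lost on leaving out any 1 of the input or miR-634 RIP arrays (adjusted p 0.0515 to 0.122), and that of enrichment without either miR-NC input array, miR-634 input replicate 2 or miR-634 RIP replicate 2 (0.0515 to 0.0687). Without miR-NC RIP replicate 1 the RIP change was 1.0, and without miR-NC RIP replicate 2 it was 0.28 and the fold change of enrichment 0.71. Either omission leaves 1 array in that group and drops its wide spread from the test, so these values are given with no call. Leaving out an input array did not alter the RIP change of 0.64, only the estimate of its spread. By both probes PHIP was depleted in the precipitate, with an enrichment of -1.40 and -1.88 with miR-NC (adjusted p = 4.04e-06 and 0.000259) and -0.67 and -0.81 in miR-634 cells (adjusted p = 4.97e-05 and 0.0121). The last of these was lost without miR-634 input replicate 1 (adjusted p = 0.0692) or miR-634 RIP replicate 1 (adjusted p = 0.0582).

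BRD3 changed most among the members other than BRWD1, and its RNA fell in the input and rose in the RIP by all 3 of its probes, all to NM_007371. Probe A_23_P216689 read 8.96 and 8.88 in miR-NC input, 8.18 and 8.22 in miR-634 input, 8.74 and 8.84 in miR-NC RIP, and 9.63 and 9.73 in miR-634 RIP. The miR-634 input arrays were the lowest and the miR-634 RIP arrays the highest of all 8, with the miR-NC arrays between. Total RNA changed by -0.72 (SE 0.06, adjusted p = 0.00163), a fall of 1.65-fold. In the RIP the change was 0.89 (SE 0.06, adjusted p = 2.7e-05), a rise of 1.85-fold. Together these gave a fold change of enrichment of 1.61 (SE 0.09, adjusted p = 1.65e-05), or 3.05-fold.

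Probe A_24_P32887 of BRD3 gave nearly the same changes. Its levels were 7.95 and 7.91 in miR-NC input, 7.31 and 7.26 in miR-634 input, 7.45 and 7.57 in miR-NC RIP, and 8.51 and 8.37 in miR-634 RIP. The input change was -0.65 (SE 0.07, adjusted p = 0.00315), the RIP change 0.93 (SE 0.07, adjusted p = 3.89e-05) and the fold change of enrichment 1.58 (SE 0.10, adjusted p = 3.02e-05), or 2.99-fold. Probe A_33_P3240674, at 8.68 and 8.49, 8.19 and 8.21, 8.65 and 8.43, and 8.89 and 8.73 in the same order of groups, moved the same way by less. Its input change was -0.38 (adjusted p = 0.0488) and its RIP change 0.27 (adjusted p = 0.0474). The first call was lost on leaving out any 1 input or miR-634 RIP array. Quantile normalization, normexp, the authors' values, median scaling, the all-probe percentile and centering lost it as well. The second was lost without miR-NC RIP replicate 2, miR-634 RIP replicate 1 or either miR-634 input array, with a RIP change of 0.17 in the first of these. Both calls were also lost with the filter on the input arrays alone, with no filter on dim probes and with the methods' t-test after Benjamini-Hochberg adjustment. The fold change of enrichment of this probe was 0.66 (SE 0.15, adjusted p = 0.0069).

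In miR-NC cells the enrichment of BRD3 was -0.13 and -0.05 for probes A_23_P216689 and A_33_P3240674 (adjusted p = 0.102 and 0.697), not called. It was -0.42 for A_24_P32887 (adjusted p = 0.00155), called lower. With spike-in scaling A_23_P216689 and A_33_P3240674 were at -2.60 and -2.52, both called lower, where the median of all probes was -2.53. In miR-634 cells all 3 probes were called higher in the RIP than in the input, at 1.48, 0.61 and 1.16 (adjusted p = 1.66e-06, 0.00133 and 8.34e-06), while with spike-in scaling these were 0.09 (not called), -0.78 and -0.23 (adjusted p = 0.239, not called).

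BRD2, the other BET member, was called higher in the RIP and not called in the input. Probe A_24_P307014 (NM_005104) read 12.55 and 12.47 in miR-NC input, 12.39 and 12.36 in miR-634 input, 12.46 and 12.53 in miR-NC RIP, and 12.82 and 12.82 in miR-634 RIP. The miR-634 RIP arrays stood above the other 6. The input change was -0.13 (SE 0.05, 95% interval -0.26 to -0.01, adjusted p = 0.135), not called. The RIP change was 0.32 (SE 0.05, adjusted p = 0.00144), and the fold change of enrichment was 0.46 (SE 0.07, adjusted p = 0.00185), or 1.37-fold. Enrichment was -0.01 with miR-NC (adjusted p = 0.877) and 0.45 with miR-634 (adjusted p = 0.000222). With spike-in scaling these became -2.48 and -0.94, both called lower.

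BRD7 went the other way. Probe A_32_P18824 (NM_013263) read 12.27 and 12.24 in miR-NC input, 12.33 and 12.35 in miR-634 input, 11.68 and 11.70 in miR-NC RIP, and 11.31 and 11.29 in miR-634 RIP. The miR-634 RIP arrays were the lowest and all 4 groups were apart. Between the input groups the change was 0.08 (SE 0.04, adjusted p = 0.252), not called. The RIP change was -0.40 (SE 0.04, adjusted p = 0.000254) and the fold change of enrichment -0.48 (SE 0.06, adjusted p = 0.000726), which with spike-in scaling turned to 0.51 and 0.61. BRD7 was depleted in the RIP in both, by -0.56 with miR-NC and -1.04 with miR-634 (adjusted p = 4.57e-05 and 1.79e-06).

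BRD9 had more total RNA after miR-634, while its RIP change was not called. Probe A_23_P19004 (NM_023924) read 7.93 and 7.96 in miR-NC input, 8.31 and 8.45 in miR-634 input, 7.69 and 7.80 in miR-NC RIP, and 7.72 and 7.81 in miR-634 RIP. The RIP groups overlapped and the miR-634 input arrays were the highest of the 8. The input change was 0.44 (SE 0.07, adjusted p = 0.0108), a rise of 1.36-fold. It was lost without miR-NC input replicate 1 (adjusted p = 0.0756), miR-NC input replicate 2 (0.0614) or miR-634 input replicate 2 (0.067), and was 0.26 and not called with spike-in scaling. In the RIP it changed by 0.01 (SE 0.07, 95% interval -0.16 to 0.19, adjusted p = 0.864), called with spike-in scaling at 0.92 and after centering at 0.25. The fold change of enrichment was -0.43 (SE 0.10, adjusted p = 0.00967). It was not called with the authors' processed values, the percentile over all probes or centering (-0.31, -0.31 and -0.16), and turned to 0.66 with spike-in scaling. Enrichment was -0.62 in miR-634 cells (adjusted p = 0.000206) and -0.19 in miR-NC cells (adjusted p = 0.0451). The latter call was lost without either miR-NC input array, without miR-NC RIP replicate 1 and without either miR-634 RIP array (adjusted p 0.0503 to 0.182), and with all the other normalizations and filters except spike-in scaling, with the intensity trend and after centering (0.059 to 0.251).

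BRD8 did not pass the test in any of the 5 comparisons. Probe A_23_P145016 (NM_006696) read 9.95 and 9.81 in miR-NC input, 9.80 and 9.79 in miR-634 input, 9.86 and 9.77 in miR-NC RIP, and 9.95 and 9.90 in miR-634 RIP. Its changes were -0.08 in the input (95% interval -0.24 to 0.08), 0.11 in the RIP (-0.05 to 0.27) and 0.19 in the fold change of enrichment (-0.03 to 0.42), with adjusted p of 0.429, 0.163 and 0.104. The last 2 were called after centering, at 0.35 and 0.46, with the authors' processed values and the percentile over all probes, and with spike-in scaling at 1.02 and 1.28. Its enrichment in miR-634 cells was 0.13 (adjusted p = 0.102) and -1.25 with spike-in scaling, whereas it was called higher with quantile normalization, the authors' values, median scaling, the all-probe percentile and centering, at 0.17 to 0.28. A second probe, to NM_139199, was not well above background on any array.

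**Figure D2:**
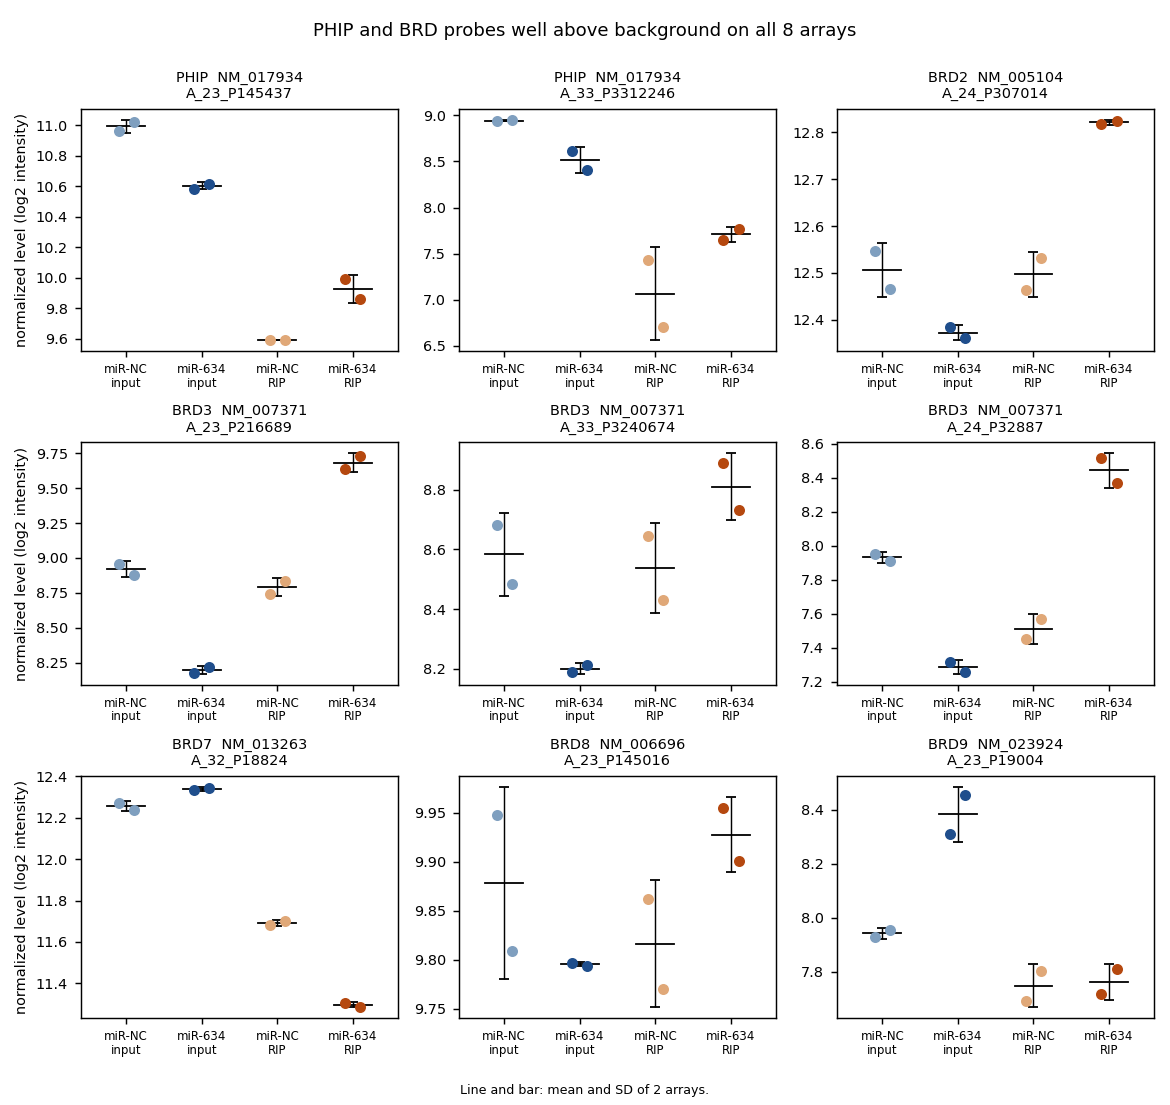
Normalized level (log2 intensity, vertical axis, each panel with its own range) of the 9 tested probes of PHIP, BRD2, BRD3, BRD7, BRD8 and BRD9 on the 2 arrays of each group, with the mean and SD. For BRD3 probe A_23_P216689 the miR-634 input arrays lie lowest, at 8.18 and 8.22, and the miR-634 RIP arrays highest, at 9.63 and 9.73, while for BRD7 the miR-634 RIP arrays lie lowest.

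Counted over the 9 tested probes other than those of BRWD1, 1 was called higher and 4 lower in the input after miR-634, with a median change of -0.38 against -0.02 over all probes. Over all tested probes 8.51% were called higher and 9.81% lower in this comparison. The 4 lower probes belonged to BRD3 and PHIP, so that they stood for 2 genes, and the 5 calls came to between 2 and 6 when 1 array was left out. The count was 2 without miR-NC input replicate 1, miR-NC input replicate 2 or miR-634 input replicate 2, and 3 without miR-634 input replicate 1.

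In the RIP, 6 of the 11 tested member probes, of PHIP, BRD2 and BRD3, were called higher and the BRD7 probe lower after miR-634, where 27.3% of all probes were called higher and 48.7% lower. These 6 were probes of 3 genes. With 1 probe per gene 3 of 7 were called higher and 1 lower, where 30.6% of all measured genes were called higher and 46.1% lower. The median RIP change of the 11 was 0.27, against -0.24 over all probes. With spike-in scaling, where the median RIP change of all probes was 0.67, all 11 were called higher. After centering on the median change 10 were called higher and 1 lower. The shares of all probes called were not counted with these scalings.

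The fold change of enrichment was called higher for 6 of the 9 probes other than BRWD1's (PHIP, BRD2 and BRD3) and lower for BRD7 and BRD9, with 24.9% of all probes called higher and 43.6% lower. The median of the 9 was 0.66, against -0.26 over all probes. With spike-in scaling, where the median of all probes was 0.82, all 9 were called higher. Since the probes of PHIP and of BRD3 share their transcripts, these 9 values are not independent. With 1 probe per gene 3 of 6 were called higher and 2 lower.

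Enrichment within miR-NC cells was called lower for 5 of the 9 probes (PHIP, BRD3 probe A_24_P32887, BRD7 and BRD9) and higher for none, where 36.4% of all probes were called higher and 41.1% lower. In the other cells, with miR-634, 4 were called higher (BRD2 and BRD3) and 4 lower (PHIP, BRD7 and BRD9), where 35.7% of all probes were called higher and 46.7% lower. With spike-in scaling none was called higher in either, and 9 were called lower with miR-NC and 7 with miR-634. The medians of all probes with that scaling were -2.53 and -1.54. These comparisons share arrays with the fold change of enrichment.

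**Figure D3:**
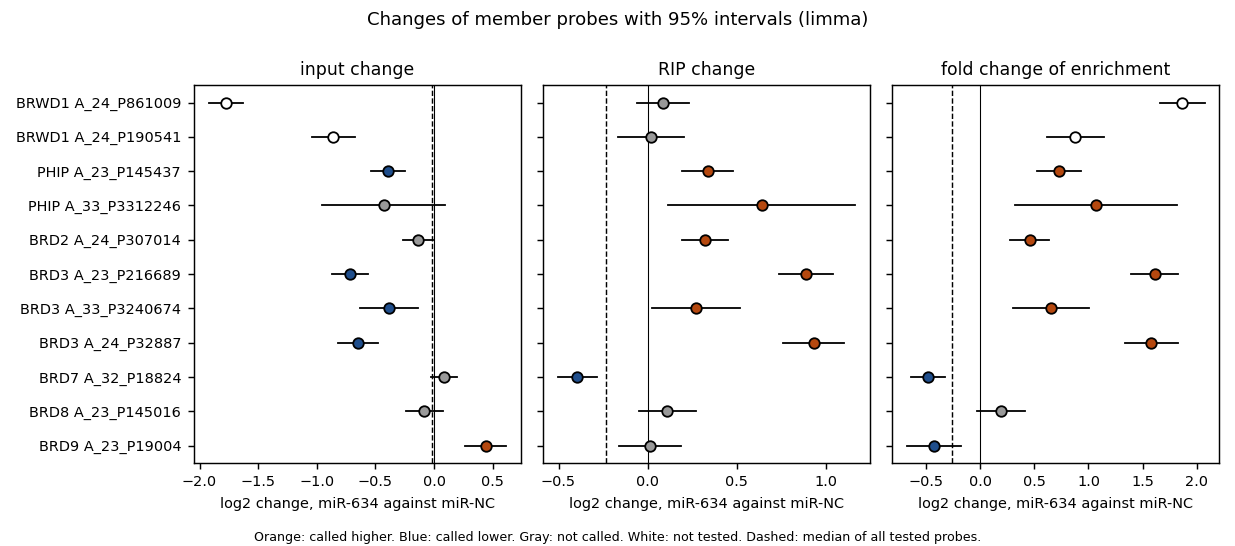
Log2 change of each tested member probe, miR-634 minus miR-NC (horizontal axis), in the input, in the RIP and in enrichment, with 95% intervals from limma. Orange and blue points were called higher and lower, gray points were not called, white BRWD1 points were not tested because the gene was chosen on the input arrays, and dashed lines are the medians of all probes (-0.02, -0.24 and -0.26). BRWD1 lies farthest to the left in the input and BRD3 farthest to the right in the RIP.

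**Figure D4:**
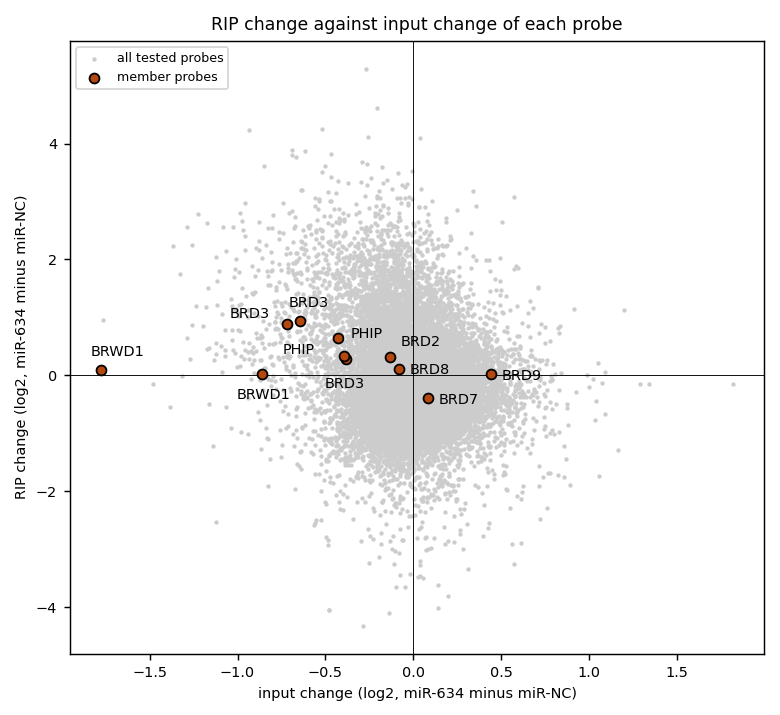
RIP change (vertical axis) against input change (horizontal axis), both log2, miR-634 minus miR-NC, of the 16805 tested probes in gray and the 11 member probes in orange. BRWD1 lies at the far left near 0 on the vertical axis (-1.78 and 0.09), BRD3 at the upper left (-0.72 and 0.89), and BRD9 to the right (0.44 and 0.01).

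The level of the brighter BRWD1 probe over the 8 arrays was most like that of LINC00847, IGF2BP3, TDG, PMS2P5 and KIF3B among 10955 other genes, with Pearson's r of 0.99, 0.98, 0.98, 0.97 and 0.97. The 8 points form 4 groups of 2 arrays, and r is given as a description. IGF2BP3, an RNA-binding protein, and TDG, a DNA glycosylase, had input changes of -0.92 and -0.86 with RIP changes of 0.20 and 0.02, and the kinesin KIF3B -0.81 and 0.33. LINC00847 and PMS2P5 had input changes of only -0.27 and -0.33, with RIP changes of 0.04 and -0.01. Among the members, r with BRWD1 was 0.81 for BRD3, 0.69 for BRD2, 0.50 for BRD8, -0.49 for PHIP, -0.73 for BRD7 and -0.96 for BRD9.

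Of 34 other bromodomain genes, 22 were measured, and 2 rose and 2 fell in the input, where 9.89% of all measured genes were called higher and 10.6% lower. KMT2A, a histone methyltransferase, rose by 0.61 and SMARCA4, a remodeler ATPase, by 0.40, while TRIM33 changed by -0.64 and KAT2A, a histone acetyltransferase, by -0.28 (adjusted p 0.00593 to 0.0469). In the RIP 7 were called higher and 9 lower, with a median of -0.13 against -0.18 over all 10956 measured genes, of which 30.6% were called higher and 46.1% lower. KAT2A (1.37) and TRIM24 (1.06) had the largest RIP rises, and ZMYND8 (-1.0) the largest fall. In the fold change of enrichment 6 were called higher, led by KAT2A (1.65) and TRIM33 (1.25). The 9 called lower were led by ZMYND8 (-1.07), which was 0.01 with spike-in scaling. Over all genes the shares called higher and lower were 27.7% and 42.5%.

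Of 25 genes of CUL4 ligases, covering the core subunits and substrate receptors other than BRWD1, BRWD3 and PHIP, 23 were measured. In the input 1 was called higher (AMBRA1, 0.20) and 2 lower (DDB2, -0.35, and DTL, -0.22, both substrate receptors), where 9.89% of all genes were called higher and 10.6% lower. In the RIP 6 were called higher and 9 lower, with a median of -0.03, against 30.6% and 46.1% of all genes and their median of -0.18. The largest RIP rises were of RBX1 (1.31), the RING subunit of the ligase, and DET1 (1.30), and the largest falls of DCAF17 (-0.92) and DCAF16 (-0.81), the latter 0.10 with spike-in scaling. In the fold change of enrichment 6 were called higher, led by the scaffold CUL4B (1.52) and RBX1 (1.52). The 7 called lower were led by DCAF17 (-0.97) and DCAF16 (-0.87), which were 0.12 and 0.22 with spike-in scaling. Over all genes these shares were 27.7% and 42.5% with the percentile scaling. The lowest input change on this list was -0.40.

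The partners of BRD7 and BRD9 in the SWI/SNF remodelers, 21 of 22 measured, had a median RIP change of -0.22, against -0.18 over all genes, with 4 called higher and 10 lower, where 30.6% of all genes were called higher and 46.1% lower. SMARCD2 and DPF2 rose by 0.52 each, and SS18 (-0.92) and BICRA (-0.75), both of which occur with BRD9 in the non-canonical complex, had the largest RIP falls, with BICRA at 0.15 under spike-in scaling. In the input ARID2, a subunit of PBAF, had a change of -0.40 and BCL7C -0.23. SMARCA4 and SMARCC2 rose by 0.40 and 0.36, among 3 called higher and 2 lower, where 9.89% and 10.6% of all genes were. Of the measured genes here, PBRM1, SMARCA2 and SMARCA4 were also on the list of other bromodomain genes. The fold change of enrichment was called higher for 5, led by BCL7A (0.70) and DPF2 (0.68). It was called lower for 10, led by SS18 (-0.86) and SMARCB1 (-0.84), which were 0.22 and 0.25 with spike-in scaling. Of all genes 27.7% were called higher in the fold change of enrichment and 42.5% lower.

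The partners of BRD8 in NuA4/TIP60, 14 of 16 measured, showed more RIP rises. In the RIP 9 were called higher and 4 lower, with a median of 0.85, against 30.6% and 46.1% of all genes and their median of -0.18, led by the ATPase RUVBL1 (2.43, or 5.40-fold) and MEAF6 (1.40). EPC2 (-1.0) and EPC1 (-0.45) had the largest falls, EPC1 being 0.45 with spike-in scaling. In the input 4 were called lower and none higher, led by MORF4L1 (-0.89) and TRRAP (-0.50). Over all genes 9.89% were called higher and 10.6% lower in the input. The fold change of enrichment was called higher for 9, led by RUVBL1 (2.47) and MORF4L2 (1.71). It was called lower for 4, led by EPC2 (-1.09) and EPC1 (-0.55, or 0.53 with spike-in scaling). The median fold change of enrichment was 1.09, against -0.22 over all genes, of which 27.7% were called higher and 42.5% lower. With spike-in scaling the median RIP changes of the 4 lists, in order, were 0.78, 0.87, 0.69 and 1.76, against 0.67 over all probes. None of their genes was then called lower in the RIP or in the fold change of enrichment. The latter had a median of 0.82 over all probes with this scaling, and the share of all genes called lower was not counted.

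**Figure D5:**
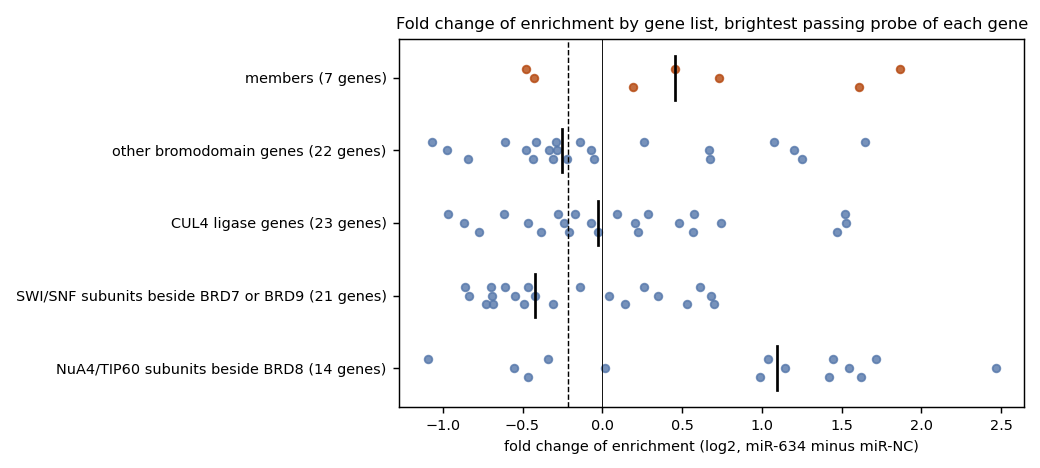
Fold change of enrichment (log2, miR-634 minus miR-NC, horizontal axis) of the brightest tested probe of each gene, for the 7 members with such a probe in orange and for the 4 lists in blue, with short bars at the list medians and a dashed line at the median of all genes (-0.22). The NuA4/TIP60 list has its median at 1.09, and the list of other bromodomain genes at -0.25.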

How the data were processed

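For each of the 8 arrays, the authors deposited the Agilent Feature Extraction intensity of every spot (12.0.1.1 in the file headers, 9.1 in the submitters' processing notes), background-subtracted and not normalized between arrays, with flags for spots well above background. The authors also deposited processed log2 values, used as an alternative. Control and outlier spots were left out, spots of a probe were averaged, log2 was taken and arrays were aligned at the 75th percentile of the 16805 of 58201 probes (28.9%) well above background on all 8 arrays. No spot was saturated, and 33.6 to 45.8% of spots per array were well above background.

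Scanner files give accessions and no gene names. RefSeq accessions were given for 33080 probes, and 31104 of these found a symbol in the RefSeq table of GRCh38.p14. The array was annotated on hg19, so gene coordinates are not given. R 4.3.3 with limma 3.58.1 fitted the 4 group means of each probe (lmFit, eBayes), with Benjamini-Hochberg adjustment over all tested probes and a threshold of 0.05, after a test on simulated data. For other genes the brightest tested probe was used, and those named have the 2 largest called rises and falls of each list with the same sign in both replicate numbers, apart from 1 that is not reported here. The members and lists were chosen with earlier results of these data known.

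Alternatives were quantile normalization, normexp (offset 50, on the median spot signal) with quantile normalization, the authors' values, median, all-probe percentile and spike-in scaling, centering, other filters, 1 probe per gene, an intensity trend, a replicate block, leaving out each array, and the methods' t-test. The slide (1) and the scan (1) were shared by all arrays, with input and RIP arrays in different rows and the kinds of cells in different columns, so that position and group cannot be told apart.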

Additional observations from a re-analysis of the deposited data

Results flagged for a closer look

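The RIP/input ratio of 8 member probes, of 9 tested, differed between miR-634 and miR-NC cells. This was by the test of the difference itself (the interaction term in limma), which left out BRWD1. By it 24.9% of all probes were called higher and 43.6% lower. PHIP differed by 0.73 (A_23_P145437) and 1.07 (A_33_P3312246) on the log2 scale, the latter call being lost on leaving out some single arrays. BRD2 differed by 0.46. BRD3 differed by 1.61 (A_23_P216689), 1.58 (A_24_P32887) and 0.66 (A_33_P3240674). BRD7 and BRD9 differed by -0.48 and -0.43, both of which were positive with spike-in scaling. BRD9 was not called with the authors' processed values, the percentile over all probes or centering.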

How the results depend on the processing

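Of 1135 recomputed values of member probes, 980 kept their direction and side of the threshold or moved by less than the spread between replicates, apart from 18 among them that changed sign without being called either way. With spike-in scaling 7 values called with or without it turned: BRD7 to 0.51 in the RIP and 0.61 in enrichment (fold change), BRD9 to 0.66 in the fold change of enrichment, and enrichment in miR-634 cells to -0.94 for BRD2, -0.78 and -0.23 for BRD3 and -1.25 for BRD8. The untested BRWD1 enrichment turned to -2.11 in miR-NC cells (A_24_P861009) and -0.99 in miR-634 cells (A_24_P190541), and the uncalled BRD7 input change to -0.09. That scaling called 11 member probes in the RIP (7 in the report) and 9 in the enrichment within miR-NC cells (5). The medians of all probes there were 0.67 and -2.53. Centering called 11 in the RIP. The input calls, 5 in the report, came to 1 with no filter on dim probes and to 0 with the methods' t-test after Benjamini-Hochberg adjustment, against 5 at an unadjusted p of 0.05. That test left 4 calls in the RIP and 3 in miR-NC enrichment. Using 1 probe per gene gave 3 in the input, 4 in the RIP, 5 in the fold change of enrichment, 3 in miR-NC enrichment and 5 in miR-634 enrichment. Then 7 probes were tested in the RIP, with 3 called higher and 1 lower, and 6 in each other comparison. Leaving out 1 array gave 2 to 6 calls in the input, 5 to 7 in the RIP, 7 to 8 in the fold change of enrichment, 4 to 5 in miR-NC enrichment and 7 to 8 in miR-634 enrichment. Replicate differences of groups with the same numbers correlated at -0.03 to 0.08, so the main fit did not pair arrays by number. The replicate block gave 5, 7, 8, 5 and 8 calls, as in the report. Arrays were matched by number only in the methods' t-test of the fold change of enrichment and in the sign rule for naming genes of the lists. The cause of the differences between settings was not tested. With 2 arrays a group and dim BRWD1 and BRWD3 probes on the RIP arrays, small changes could not be resolved.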
